A study of Mus musculus with 16 samples.

Results

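Binding of the homeodomain transcription factors Meis1 and Hoxb13 was examined at 10 genes of glycolysis and of the hypoxia-inducible factors (HIF) in mouse heart ventricles. The genes were Hif1a, Epas1, Hk1, Hk2, Gpi1, Pfkm, Aldoa, Gapdh, Pkm and Ldha, 10 of 21887 protein-coding genes that RefSeq places on GRCm38.p6, whose coordinates are those of mm10. They were named by function, and every chromatin immunoprecipitation (ChIP-seq) peak that overlapped a gene body or the 5 kb on either side of it was taken. Peak lists of 8 libraries were used, from 2 control and 2 drug-treated samples for each antibody. Control mice received PBS, the vehicle. Treated mice received the aminoglycoside antibiotics paromomycin and neomycin (Paro/Neo) at 150 mg/kg by intraperitoneal injection, 2 times a day. Injections of either kind began at postnatal day 7 and went on for 7 days, and hearts were taken at postnatal day 15. One antibody was raised against Meis1/2, so its peaks may include sites of Meis2, and the other against Hoxb13. No strain, genotype or sex is stated in the labels, and these describe ventricles of 2 hearts for each sample, which can mean pools or single hearts. The tissue was whole ventricle, so weak binding in many cells and strong binding in few cells cannot be told apart.

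Glycolysis splits glucose into pyruvate in the cytosol, and lactate dehydrogenase turns pyruvate into lactate where oxygen or mitochondria are limiting. HIF proteins are oxygen-regulated transcription factors that switch on many glycolytic genes through the core sequence ACGTG, the hypoxia response element. The fetal and newborn heart relies on glycolysis, and the heart turns to fatty acid oxidation in the weeks after birth, when its muscle cells leave the cell cycle. Hif1a and Epas1 encode the alpha subunits HIF-1α and HIF-2α. Hexokinases (Hk1, Hk2), glucose-6-phosphate isomerase (Gpi1), muscle phosphofructokinase (Pfkm), aldolase A (Aldoa), glyceraldehyde-3-phosphate dehydrogenase (Gapdh), pyruvate kinase (Pkm) and lactate dehydrogenase A (Ldha) are given here in the order of their reactions.

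Hoxb13 peaks covered annotated promoters of several of these genes. The 250 bases before the transcription start are printed for 7 genes. Their start lay under a Hoxb13 region, merged over the 4 lists, that was called in at least 2 libraries. At Hif1a and Gpi1 the peak of Paro/Neo replicate 2 alone reached the start. Sequences are those of RefSeq for GRCm38.p6, 5′ to 3′ on the strand of the gene, and capitals mark ACGTG or its reverse complement CACGT.
Hif1a (chr12:73907617-73907866, + strand): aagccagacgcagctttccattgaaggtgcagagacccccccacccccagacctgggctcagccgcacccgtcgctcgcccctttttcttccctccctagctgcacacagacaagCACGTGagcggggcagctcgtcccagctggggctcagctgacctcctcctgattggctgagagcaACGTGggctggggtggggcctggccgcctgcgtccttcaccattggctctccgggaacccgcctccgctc
Hk1 (chr10:62340422-62340671, - strand): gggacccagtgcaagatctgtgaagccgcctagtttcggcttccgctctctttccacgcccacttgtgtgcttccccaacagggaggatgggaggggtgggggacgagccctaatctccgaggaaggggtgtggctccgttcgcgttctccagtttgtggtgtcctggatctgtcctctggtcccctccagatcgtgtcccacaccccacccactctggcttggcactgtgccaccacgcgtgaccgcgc
Gpi1 (chr7:34230337-34230586, - strand): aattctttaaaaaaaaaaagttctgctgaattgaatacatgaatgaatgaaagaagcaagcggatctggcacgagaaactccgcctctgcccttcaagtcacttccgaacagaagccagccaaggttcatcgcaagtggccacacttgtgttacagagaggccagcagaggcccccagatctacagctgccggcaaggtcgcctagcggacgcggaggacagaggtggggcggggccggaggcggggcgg
Aldoa (chr7:126799255-126799504, - strand): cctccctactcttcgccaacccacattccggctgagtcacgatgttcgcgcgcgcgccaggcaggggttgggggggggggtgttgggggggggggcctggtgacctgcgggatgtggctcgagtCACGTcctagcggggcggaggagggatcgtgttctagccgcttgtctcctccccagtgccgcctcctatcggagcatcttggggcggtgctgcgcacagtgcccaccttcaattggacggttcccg
Gapdh (chr6:125165774-125166023, - strand): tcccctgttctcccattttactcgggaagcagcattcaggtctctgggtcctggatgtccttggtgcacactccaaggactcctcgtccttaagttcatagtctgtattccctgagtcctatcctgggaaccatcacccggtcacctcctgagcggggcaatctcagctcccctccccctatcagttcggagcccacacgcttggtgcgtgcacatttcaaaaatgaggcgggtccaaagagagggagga
Pkm (chr9:59656326-59656575, + strand): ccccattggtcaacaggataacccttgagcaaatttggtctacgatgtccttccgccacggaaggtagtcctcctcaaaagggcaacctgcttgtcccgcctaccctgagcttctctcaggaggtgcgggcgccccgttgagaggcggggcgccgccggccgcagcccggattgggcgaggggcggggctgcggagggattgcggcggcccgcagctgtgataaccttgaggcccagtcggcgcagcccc
Ldha (chr7:46845554-46845803, + strand): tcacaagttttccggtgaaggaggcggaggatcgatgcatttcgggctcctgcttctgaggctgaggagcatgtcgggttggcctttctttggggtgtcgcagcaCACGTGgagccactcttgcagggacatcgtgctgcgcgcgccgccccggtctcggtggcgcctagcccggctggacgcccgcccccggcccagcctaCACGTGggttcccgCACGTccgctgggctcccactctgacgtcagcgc
RefSeq promoters were listed for 9 of the 10 genes, with 17 starts in all. The exception was Epas1. The core ACGTG, searched on both strands, was in 8 of these 17 windows of 250 bases, at Hif1a, Hk2, Pfkm, Aldoa, Pkm and Ldha, while 16.6% of all 32851 listed promoters held it. By gene, 6 of the 9 held it. Each window was counted, also where windows of a gene overlap, and the Aldoa windows with the core overlap and share the same match. The palindrome CACGTG counts on both strands and stands in the printed windows of Hif1a and Ldha. Neither TGACAG, a core bound by Meis proteins, nor TTTATNG, of the class bound by posterior Hox proteins, was found in any of the 17 windows. Of all promoters, 15.9% held TGACAG and 9.81% held TTTATNG. The oestrogen-related receptor motif AAGGTCA (in 4.08% of all promoters) and the TATA box motif TATAAA (12.4%) were in none of the 17 either. The median GC content was 60.4% in the 17 windows and 52.4% in all promoters.

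The lists differed in length, from 1025 to 3529 peaks for Meis1 and from 821 to 16963 for Hoxb13, and sequencing depth is unknown. Each peak has the fold enrichment over local background that the authors' caller gave, and peaks are ranked by it within their own list, with rank 1 the highest. Of 6 cardiomyocyte markers, all had a peak in each Hoxb13 library and 2 to 5 had one in the Meis1 libraries. Endothelial markers had a peak at 2 of 4 in each Meis1 library and at 0 to 4 in the Hoxb13 libraries. Fibroblast markers had one at 0 of 4 in each Meis1 library and at 0 to 4 in the Hoxb13 libraries, and leukocyte markers at 0 of 4 and at 0 to 1. All 4 endothelial and all 4 fibroblast markers had a peak only in Hoxb13 Paro/Neo replicate 2, the longest list. Of all protein-coding genes, 2.83% to 8.59% had a peak in the Meis1 libraries and 4.2% to 46.5% in the Hoxb13 libraries. The share of each cell type in the tissue was not measured, and its part in the results was not tested.

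Meis1 peaks lay at 5 of the 10 genes (11.8% of all protein-coding genes), in the control libraries alone, and none of the 10 had a peak in either Paro/Neo library. In control replicate 1, Epas1, Hk2, Gapdh and Pkm had a peak, 4 genes where 8.59% of all genes had one. In control replicate 2, Hk1 and Pkm had a peak, 2 genes where the share of all genes was 8.21%. For Paro/Neo replicates 1 and 2 the shares of all genes were 4.07% and 2.83%, so that 0 of 10 is near the background. Among the 15035 genes with a body within the length range of these 10 (4.62 to 111 kb), the shares were 7.44% and 7.18% in control and 3.37% and 2.35% in Paro/Neo. The mean was 3 ± 1.41 genes per library in control and 0 in both Paro/Neo libraries (SD, n = 2 each). Over all genes, 6.79% had a Meis1 peak in a control library and none after Paro/Neo, the pattern of these 5 genes. No p-value was computed for the 10 genes, because they were chosen with earlier results of these data known.

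Pkm, whose enzyme makes pyruvate and ATP in the last step of glycolysis, was the 1 gene with a Meis1 peak in both control libraries. The peak spanned chr9:59666928-59667385 in control replicate 1 and chr9:59666928-59667456 in replicate 2, inside the gene and 9701 bp from the nearest listed start. Its fold was 3.64 (rank 3036 of 3529) in replicate 1 and 5.77 (rank 840 of 3176) in replicate 2. The peak was thus weak in one control list and in the upper part of the other. Over all genes, 5.63% had a Meis1 peak in both controls, and 2.08% had this without a Paro/Neo peak.

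The other Meis1 peaks were each called in 1 library, and all 4 ranked below the middle of their list. Upstream of Gapdh, a peak of 247 bp at chr6:125166939-125167185, 472 bp outside the gene, had a fold of 4.37 (rank 2174 of 3529) in control replicate 1. In Epas1 a peak at chr17:86770987-86771220 had a fold of 3.52 (rank 3199 of 3529) in the same library. In Hk2, the main insulin-responsive hexokinase of muscle, a peak at chr6:82753713-82754217 had a fold of 3.44 (rank 3298 of 3529), 20237 bp from the start. In Hk1 a peak of 185 bp at chr10:62332907-62333091 had a fold of 4.38 (rank 2033 of 3176) in control replicate 2. None of the 5 Meis1 regions overlapped a listed start of its gene. Of all 5069 Meis1 regions, 4.87% overlapped a listed start of any gene, so that 0 of 5 is near the background. The Epas1 region could not count, because no start was listed for that gene. Hif1a, Gpi1, Pfkm, Aldoa and Ldha had no Meis1 peak in any of the 4 libraries.

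The control lists were longer than the Paro/Neo lists. With every Meis1 list held to its strongest 1025 peaks, control replicates 1 and 2 had a peak at 0 and 1 of the 10 genes, the latter at Pkm, and both Paro/Neo libraries at 0. The shares of all genes were then 2.76%, 2.88%, 2.93% and 2.83%. For the second Meis1 replicates, the list names and the labels disagree about which is control, and the labels were followed. With these replicates exchanged, the group means were 2 and 1 genes.

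**Figure D1:**
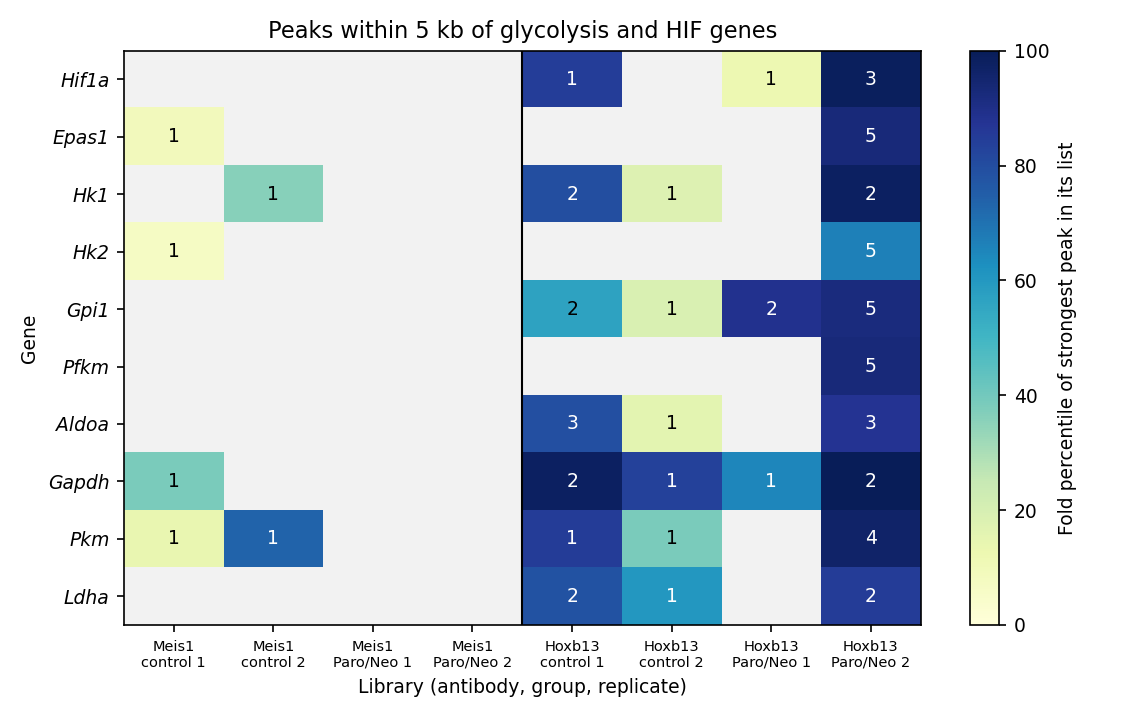
Each cell is 1 gene (vertical axis) in 1 library (horizontal axis). The number is the count of peaks within 5 kb of the gene, the colour is the fold percentile of the strongest of them within its list, and grey cells have no peak. Meis1 peaks appear in the control columns alone, at 4 and 2 genes, and the last Hoxb13 column has a peak at all 10 genes.

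Hoxb13 peaks lay at all 10 genes in at least 1 library, at 7 genes in at least 2 and at 2 genes, Gapdh and Gpi1, in all 4. Over all protein-coding genes these shares were 47.6%, 23.6% and 2.83%. The same 7 genes had a peak in at least 3 libraries (6.7% of all genes). Control replicate 1 had a peak at 7 genes (24.2% of all genes) and control replicate 2 at 6 (5.79%). Paro/Neo replicate 1 had a peak at 3 genes (4.2%) and Paro/Neo replicate 2 at all 10 (46.5%). The 6 genes of control replicate 2 were Hk1, Gpi1, Aldoa, Gapdh, Pkm and Ldha, all of which also had a peak in control replicate 1 (both controls: 5.48% of all genes). Epas1, Hk2 and Pfkm had Hoxb13 peaks after Paro/Neo alone, all in replicate 2 (Paro/Neo alone: 23.1%). The 3 genes of Paro/Neo replicate 1 were Hif1a, Gpi1 and Gapdh. Group means were equal at 6.5 genes per library, ± 0.707 in control and ± 4.95 in Paro/Neo (SD, n = 2 each), with a wide spread within Paro/Neo. Among the 15035 genes within the length range of the 10, the shares were 27.0% and 6.29% in control and 4.52% and 52.0% in Paro/Neo. This range does not match the genes by length. The median window was 44.4 kb at the 10 genes and 27.2 kb at all protein-coding genes. The genes were chosen with these results known, so their count beside that of all genes is a description.

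With every Hoxb13 list held to its strongest 821 peaks, the number of genes was 3 or 4 in each library. Control replicate 1 then had a peak at Hif1a, Gapdh and Pkm, and control replicate 2 at Gapdh, Pkm and Ldha. Paro/Neo replicate 1 had one at Hif1a, Gpi1 and Gapdh, and Paro/Neo replicate 2 at Hif1a, Hk1, Gapdh and Pkm. These were 3, 3, 3 and 4 genes, where the shares of all genes were 4.71%, 4.37%, 4.2% and 4.64%. Gapdh was in all 4 of these short lists, each time with a peak at the 3′ end. The peaks behind the other calls were not always the same region. In Paro/Neo replicate 2 the call at Hif1a came from a peak 1990 bp past the gene (rank 208), and that at Pkm from a peak at chr9:59679569-59680375 (rank 635), 197 bp past the gene and over a listed start of Gramd2.

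**Figure D2:**
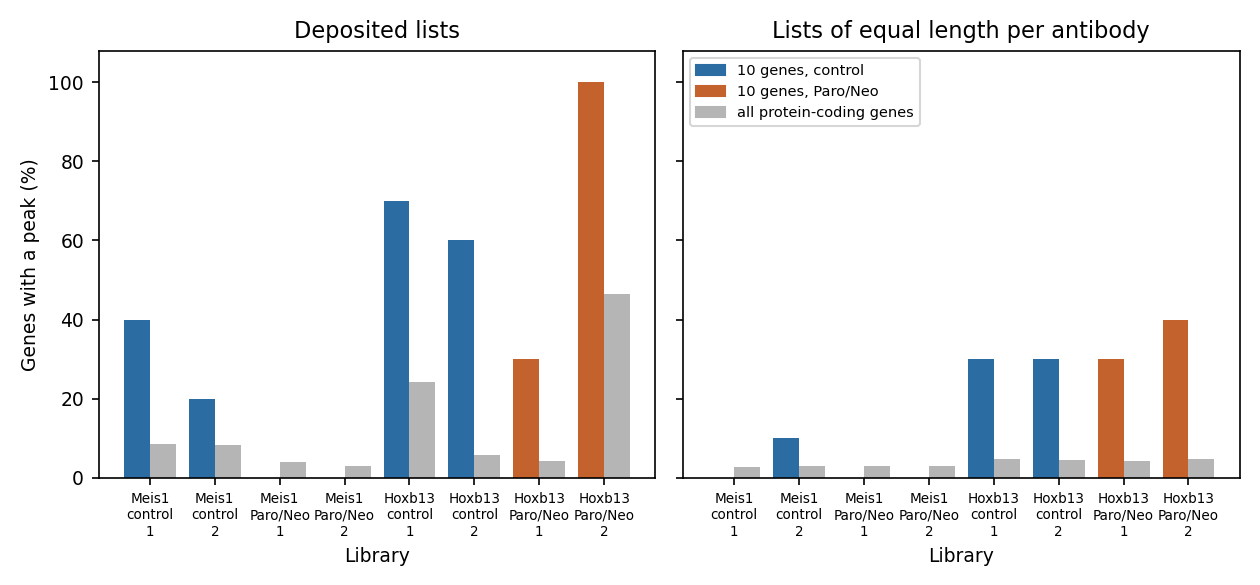
Bars give the percentage of genes with a peak in each library (horizontal axis), for the 10 glycolysis and HIF genes in colour and for all 21887 protein-coding genes in grey. The left panel uses the deposited lists, where the Hoxb13 bars of the 10 genes run from 30% to 100%; in the right panel, with lists of equal length for each antibody, they run from 30% to 40%.

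Merging the 4 Hoxb13 lists gave 37 regions at the 10 genes, of which 12 were called in at least 2 libraries. All 12 included a call in Paro/Neo replicate 2, the longest list. Without that library 7 regions were called in at least 2 libraries, and with lists of equal length 3 were. In 7 of the 12, at Hif1a, Hk1, Gpi1, Aldoa, Gapdh, Pkm and Ldha, the region overlapped a listed start of its own gene, and 4 others, at Gpi1, Aldoa, Gapdh and Ldha, lay within 1 kb of the 3′ end. The last lay upstream of Gpi1, 3332 bp outside the gene. At Hif1a and Gpi1 the merged region reached the gene's own start through the peak of Paro/Neo replicate 2 alone. Of all 4426 Hoxb13 regions called in at least 2 libraries, 59.4% overlapped a listed start of some gene. Within 1 kb of the 3′ end of a gene with a listed strand lay 14.3%. These shares count the ends of any gene, so they are not the same measure as counts at a region's own gene. The Aldoa region near the 3′ end overlapped a listed start of Ppp4c, and the upstream Gpi1 region one of Gm12762. In both, only the peak of Paro/Neo replicate 2 reached that start. Among the 25 regions called once, 24 came from Paro/Neo replicate 2. Of those 25, 1 overlapped a start of its gene and 6 others lay within 1 kb of its 3′ end. Of all 13208 Hoxb13 regions called once, 19.9% overlapped a start of any gene and 8.15% lay within 1 kb of any 3′ end, again an unlike measure. Among the 25, regions at Gpi1, Pfkm and Pkm overlapped a listed start of Pdcd2l, Senp1 and Gramd2. The Epas1 regions could count at neither end, because no start or strand was listed for that gene.

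Hif1a, the gene of HIF-1α, had a region after its start in 3 of the 4 Hoxb13 libraries. The peak spanned chr12:73907932-73908695 in control replicate 1, with a fold of 3.83 (rank 811 of 5202). In Paro/Neo replicate 1 it was 227 bp wide at chr12:73907875-73908101, 8 bp after the listed start, with a fold of 3.07 (rank 720 of 821). In Paro/Neo replicate 2 it was 1184 bp wide, reached across the start, and had a fold of 2.83 (rank 13782 of 16963). Control replicate 2 had none. The highest-ranked Hoxb13 peak near Hif1a was another one, called in Paro/Neo replicate 2 alone at chr12:73949544-73950139 (rank 208), 1990 bp past the gene and inside the long non-coding RNA gene Gm15283.

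Epas1, the gene of HIF-2α, had Hoxb13 peaks in Paro/Neo replicate 2 alone, where it held 5. The first of these, 586 bp at chr17:86753219-86753804, ended 60 bp from the lower-numbered end of the gene and had a fold of 4.05 (rank 1197 of 16963). The next, 1044 bp inside the gene at chr17:86769858-86770901, had a fold of 3.98 (rank 1352) and ended 86 bp from the Meis1 peak of control replicate 1. The other 3 ranked 4822, 12354 and 16324. The 2 HIF subunits thus differed in the number of Hoxb13 libraries with a peak, 3 for Hif1a and 1 for Epas1.

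The 2 hexokinase genes differed likewise, with Hoxb13 peaks in 3 libraries at Hk1 and in 1 at Hk2. At Hk1, which encodes the hexokinase found in most tissues, the shared region lay at an internal start listed at position 62340421, the one printed above, and not at the outer start at 62379908. Peaks there were chr10:62340066-62340585 in control replicate 1 (fold 3.71, rank 1068 of 5202), chr10:62340290-62340539 in control replicate 2 (fold 3.06, rank 923 of 1121) and chr10:62339601-62340761 in Paro/Neo replicate 2 (fold 4.74, rank 380 of 16963). The long non-coding RNA gene Hk1os begins in the same region, so the 2 genes cannot be told apart there. Hk2 held 5 peaks in Paro/Neo replicate 2, from rank 5633 to rank 15269, and none of them overlapped its start. The 250 bases before that start are 69.6% GC and hold 2 matches to ACGTG.

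Gpi1, whose enzyme turns glucose-6-phosphate into fructose-6-phosphate, had a region 3332 bp upstream of its start in all 4 Hoxb13 libraries. The fold there was 3.34 (rank 2266 of 5202) and 3.09 (rank 908 of 1121) in control replicates 1 and 2, and 4.48 (rank 94 of 821) and 3.97 (rank 1375 of 16963) in Paro/Neo replicates 1 and 2. The merged region, chr7:34233668-34234558, overlapped the long non-coding RNA genes Gm12762 and Gm12758. Its peaks lay 13, 8, 76 and 0 bp from a listed start of Gm12762, in the order above, so it cannot be assigned to Gpi1. In control replicate 2 it was the only peak in the Gpi1 window, so the call of Gpi1 in all 4 libraries rests on it. The region ranked high in both Paro/Neo lists and in the middle or lower part of the control lists. Ranks from lists of different lengths cannot show whether binding changed. A second region at the start of Gpi1 was called in control replicate 1 (rank 3658) and Paro/Neo replicate 2 (rank 13861). A further region at its 3′ end, chr7:34200583-34201499, was called in both Paro/Neo libraries. Its peaks ranked 489 of 821 and 12490 of 16963, both below the middle of their list. The share of all Hoxb13 regions with these calls is not given here.

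Pfkm, the muscle form of the enzyme of the committed step, had 5 peaks in Paro/Neo replicate 2 and none in the other 3 Hoxb13 libraries. The highest-ranked, 267 bp at chr15:98115034-98115300, had a fold of 4.04 (rank 1219 of 16963), and 1 of the others overlapped a listed start at a rank of 16253. Aldoa had Hoxb13 peaks in 3 libraries. The merged region called in both controls and in Paro/Neo replicate 2, chr7:126792016-126794908, lay 326 bp past its 3′ end and overlapped a listed start of Ppp4c, a phosphatase gene, so it cannot be assigned to Aldoa. Only the peak of Paro/Neo replicate 2 overlapped that start. The peaks of control replicates 1 and 2 lay 22 and 783 bp from a Ppp4c start, and 644 and 1614 bp past Aldoa. In control replicate 2 this was the only peak in the Aldoa window (rank 945 of 1121), so the call of Aldoa there rests on it. At the starts of Aldoa itself, a peak of 738 bp in control replicate 1 had a fold of 3.69 (rank 1095 of 5202), and one of 2527 bp in Paro/Neo replicate 2 a fold of 3.76 (rank 2100 of 16963).

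Gapdh, whose enzyme oxidises glyceraldehyde-3-phosphate, had the highest-ranked Hoxb13 peaks of the 10 genes in 3 of the 4 libraries. They lay at its 3′ end, in a merged region of 1549 bp at chr6:125160345-125161893. The fold was 5.34 (rank 118 of 5202) and 4.13 (rank 186 of 1121) in control replicates 1 and 2, and 3.74 (rank 286 of 821) and 6.57 (rank 55 of 16963) in Paro/Neo replicates 1 and 2. The exception was Paro/Neo replicate 1, where the Gpi1 upstream peak ranked higher. The region also covers the end of the neighbouring gene Iffo1, at position 125161783, so the 2 genes share it. The start of Gapdh lay under a peak in control replicate 1 (376 bp, rank 3178) and Paro/Neo replicate 2 (3632 bp, rank 10759), the widest of all peaks at these genes. RefSeq lists 8 pseudogenes named as copies of Gapdh, Ldha or Aldoa, and how reads that match several places were treated is not given in the sources used here.

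Pkm had a Hoxb13 peak over its first listed start in control replicate 1 and Paro/Neo replicate 2, and just before it in control replicate 2. The peak of control replicate 1, chr9:59656102-59656738, had a fold of 3.86 (rank 775 of 5202) and covered all 250 printed bases. That of control replicate 2, chr9:59656101-59656398, had a fold of 3.34 (rank 692 of 1121) and covered 73 of them. In Paro/Neo replicate 2 the peak was 1438 bp wide with a fold of 4.03 (rank 1234 of 16963) and covered both listed starts. Ldha, whose enzyme makes lactate, had a region 77 bp past its 3′ end, chr7:46855704-46856941, in both controls and Paro/Neo replicate 2. The fold of the strongest peak was 3.68 (rank 1120 of 5202), 3.57 (rank 447 of 1121) and 3.66 (rank 2582 of 16963). The annotated RNA gene Gm39011 overlaps that region. At the Ldha start, whose printed window holds ACGTG or its reverse at 3 places, peaks were called in control replicate 1 (rank 4517 of 5202) and Paro/Neo replicate 2 (rank 9356 of 16963), low and middle positions in their lists. These peaks covered the last 28 and the last 129 of the 250 printed bases. The peak of control replicate 1 held none of the 3 places, and that of Paro/Neo replicate 2 did not hold the first.

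**Figure D3:**
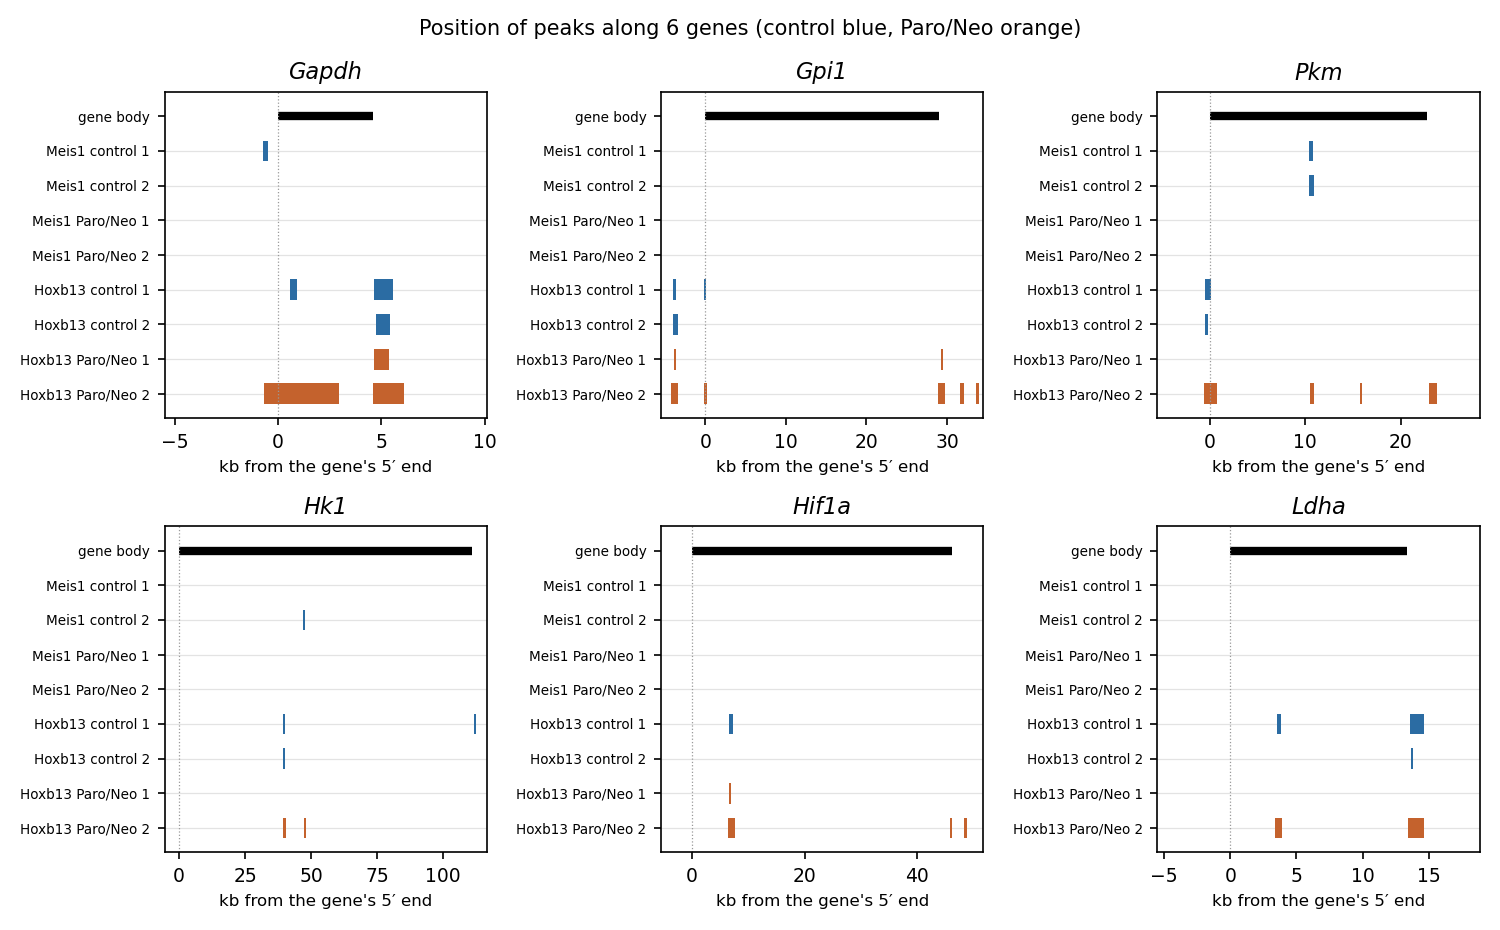
Peaks along 6 genes, drawn in kb from the 5′ end of the gene body (horizontal axis, with 5 kb on either side) for each of the 8 libraries (rows); the black bar is the gene body, control peaks are blue and Paro/Neo peaks orange. Gapdh has a Hoxb13 peak at its 3′ end and Gpi1 one upstream in all 4 Hoxb13 rows, and the Meis1 peak inside Pkm is in both control rows.

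At these genes, promoter windows touched by Hoxb13 peaks in at least 2 libraries had a higher median GC content than those touched by none. Of the 17 windows of 250 bases, 7 were touched by a peak in at least 2 libraries and 7 by none, with median GC contents of 66.4% and 51.2%. The windows are not independent, because Aldoa, Hk1 and Ldha have windows in both sets and some windows overlap. The highest GC content of the 17, 69.6% at Hk2, was in a window without a peak. The same comparison over all promoters is not given here. Control replicates 1 and 2 touched 7 and 2 of the 17 windows, and Paro/Neo replicates 1 and 2 touched 0 and 10. Of all listed promoters they touched 10.2%, 1.94%, 1.26% and 22.2%. No Meis1 peak touched any of the 17 windows, where 0.283% to 0.941% of all promoters were touched. The peaks' own widths went with the library: at these genes the median Hoxb13 width was 520 and 294.5 bp in control and 227 and 588 bp in Paro/Neo, against 412, 394, 348 and 495 bp in the whole lists.

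The 5 genes with a Meis1 peak all had a Hoxb13 peak in some library (9.28% of all genes had both), and the peaks overlapped at 2 of them. The Meis1 peak inside Pkm shared 266 and 337 bp, in control replicates 1 and 2, with a peak of Hoxb13 Paro/Neo replicate 2 (chr9:59667120-59667523, rank 12002 of 16963). The Meis1 peak upstream of Gapdh shared 192 bp with the wide peak of the same Hoxb13 library. At Epas1 and Hk1 the nearest Hoxb13 peak of that library was 86 and 141 bp away, and at Hk2 it was 1596 bp away. None of the 6 Meis1 peaks at the 10 genes overlapped a peak of the other 3 Hoxb13 libraries, where 1.36% to 7.56% of all peaks of the Meis1 control lists did, so that 0 is near the background. Over whole lists, 31.6% and 33.7% of the peaks of Meis1 control replicates 1 and 2 overlapped a peak of Hoxb13 Paro/Neo replicate 2, and 6.53% and 6.25% of the peaks in that Hoxb13 list overlapped a peak of these Meis1 lists.

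A list of 32 other genes of glucose uptake, glycolysis, lactate transport and oxygen sensing was examined in the same way. Hoxb13 peaks were called in 2 libraries at 16 of them (at least 2: 23.6% of all genes), in 1 at 12 and in none at 4, with no gene in 3 or 4. Control replicates 1 and 2 had a peak at 15 and 1 of the 32, where 24.2% and 5.79% of all genes had one. Paro/Neo replicates 1 and 2 had a peak at 0 and 28, where the shares of all genes were 4.2% and 46.5%. The 5 genes in 2 libraries with the highest mean fold percentile (the share of the list with a lower fold) of their strongest peak were Eno3 (90.4), Egln1 (84.6), Bnip3 (80.7), Pgk1 (78.5) and Eno1 (76.8). Eno3 encodes the muscle enolase, Egln1 the main HIF prolyl hydroxylase, Bnip3 a HIF-induced mitophagy receptor, Pgk1 phosphoglycerate kinase and Eno1 the common enolase. At Egln1, Bnip3 and Pgk1 the peaks of control replicate 1 lay 164, 73 and 86 bp from a listed start. None of the 32 genes had the same calls over the 8 libraries as a member called in at least 3.

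Meis1 peaks lay at 6 of the 32 genes (11.8% of all genes), at 3 of them in at least 2 libraries (6.47% of all genes). Egln3, an oxygen-sensing prolyl hydroxylase that marks HIF for destruction, had one in all 4 libraries. The Egln3 peak ran from chr12:54191941 to 54192257 in merged form, 317 bp inside the gene. Its fold was 7.91 (rank 305 of 3529) and 6.98 (rank 469 of 3176) in control replicates 1 and 2, and 8.29 (rank 88 of 1541) and 6.03 (rank 272 of 1025) in Paro/Neo replicates 1 and 2. This peak ranked above every Meis1 peak at the 10 genes in both control lists, and over all genes 1.87% had a Meis1 peak in all 4 libraries. Eno3 and Pfkl, the liver phosphofructokinase gene, had a Meis1 peak in each control library and none after Paro/Neo (2.08% of all genes). At Eno3 the folds were 6.36 (rank 655) and 5.997 (rank 744), at 1394 bp past the gene or more. At Pfkl they were 4.62 (rank 1869) and 8.06 (rank 275), over a listed start. Pgam2, Egln2 and Bpgm, the last named after its values were seen, had a Meis1 peak in control replicate 1 alone.

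**Figure D4:**
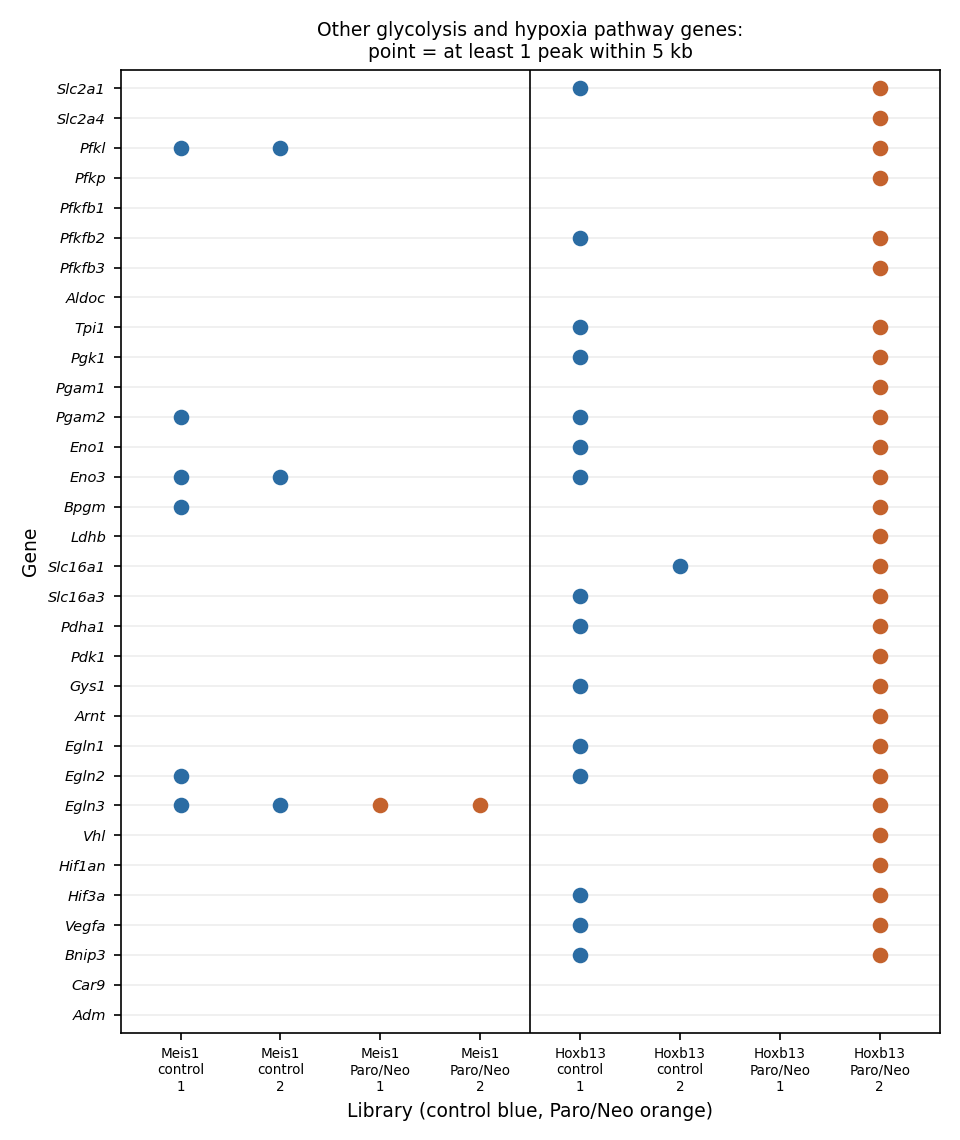
Rows are the 32 other pathway genes and columns the 8 libraries; a point marks at least 1 peak within 5 kb of the gene. Egln3 is the 1 gene with a point in all 4 Meis1 columns, and the column of Hoxb13 Paro/Neo replicate 2 has points at 28 genes while that of Paro/Neo replicate 1 has none.

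At the edge of the 5 kb window, the outermost peak inside was one of Hoxb13 Paro/Neo replicate 2 at Gpi1, 4567 bp past the gene, which overlaps the start of Pdcd2l. Between 5 and 10 kb from the 10 genes there was 1 further peak, of the same library, 7955 bp from Aldoa (rank 3024 of 16963).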

How the data were processed

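ChIP-seq peak lists of 8 libraries were analysed; the 8 input samples were not analysed here. Per the submitters' processing notes, FastQC 0.11.5, Bowtie2, Picard 1.127, MACS2 and HOMER were used on mm10; caller options, its control and filters count as not given in the sources used here. Each library came with its own list: the authors deposited 1 broadPeak list per library, without pooling, with a fold ratio, a −log10 p, a −log10 q and a score per peak. The deposited score equals 10 times the −log10 q rounded down in all peaks and was not used. The smallest deposited −log10 q is 1.00. Fold and q rank peaks only within their list. Chromosomes 1 to 19, X and Y were kept.

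Peaks overlapping a window (gene body with 5 kb either side) by at least 1 bp were taken, and peaks of an antibody sharing at least 1 bp were merged into regions (Python 3.11.15, pandas 2.3.3). Overlap code was tested on simulated data. Starts and strands came from RefSeq promoters, matched by symbol. Exon and intron were not assigned. All members are named, and of the other pathway genes, for each antibody the 5 called in most libraries, ties going to the higher mean percentile. Members and lists were chosen with earlier results of these data known, so no p-value is given. Groups followed the labels; the Meis1 and Hoxb13 samples have separate inputs, so antibody and set cannot be told apart. Alternatives were the window, a −log10 q of at least 2, peak overlap, merging, lists of equal length, exchanged Meis1 replicates and leaving out each library.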

Additional observations from a re-analysis of the deposited data

How the results depend on the processing

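Of 56 alternative values, 42 stayed within 1.5 times the reported count. No paired analysis was possible because the results come from no test. With lists of equal length, genes with a peak per library numbered 0.5 for Meis1 control, 3 for Hoxb13 control and 3.5 for Hoxb13 Paro/Neo, and regions called in at least 2 libraries numbered 0 for Meis1 (reported: 1) and 3 for Hoxb13 (reported: 12). Within 1 kb of either gene end, Meis1 control had 0.5 genes per library and 0 such regions. In the gene body alone, Hoxb13 control had 3.5 genes per library. With the second Meis1 replicates exchanged, the mean for Meis1 Paro/Neo was 1. Leaving out 1 library gave 2 to 4 genes for Meis1 control, 0 for Meis1 Paro/Neo, 6 to 7 for Hoxb13 control and 3 to 10 for Hoxb13 Paro/Neo (3 without replicate 2, 10 without replicate 1). It gave 0 to 1 Meis1 regions, 0 without either control library, and 7 to 12 Hoxb13 regions, 7 without Paro/Neo replicate 2. Depth is unknown, so no detection limit can be given for an absent peak.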
